A study of Mus musculus with 6 samples.

Results

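The liver makes phosphatidylcholine and phosphatidylethanolamine along the branches of the Kennedy pathway, and 10 genes of these routes were examined in the livers of allantoin-supplemented mice. They were taken by their GENCODE M21 symbol out of 54532 Ensembl genes in the count table, and all 10 were found. The genes are the choline kinases Chka and Chkb, the ethanolamine kinases Etnk1 and Etnk2, the cytidylyl-transferases Pcyt1a, Pcyt1b and Pcyt2, the phosphotransferases Chpt1 and Cept1, and the methyltransferase Pemt. The pathway was chosen by the measured change of Chka, among the largest decreases of the whole table, so the values of Chka are described without a test. The other 9 genes are textbook members of these routes, and p-values are given for those that could be tested. Selenoi, which encodes a phosphotransferase specific to ethanolamine, is not among the 10 and was examined with other genes of phospholipid metabolism.

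In the Kennedy pathway, a kinase first phosphorylates choline or ethanolamine, a cytidylyl-transferase then couples the product to CTP, and a phosphotransferase joins the head group to diacylglycerol. The cytidylyl-transferase step usually limits the flux of either branch. Hepatocytes have a further route, in which Pemt methylates phosphatidylethanolamine to phosphatidylcholine with S-adenosylmethionine as the methyl donor, and phosphatidylcholine made by these routes coats lipid droplets and very-low-density lipoproteins and enters bile.

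The 6 liver libraries came from C57BL/6 J males, wild type in genotype, and were split evenly between a group named HFD and a group named HFD+Allantoin-H (n = 3 each). Mice of both groups were 8 weeks old at the start, were fed a high-fat diet for 4 weeks and remained on it for 4 further weeks, during which the HFD+Allantoin-H mice received allantoin, the oxidation product of uric acid, in their drinking water. The sample labels name a low dose (0.06 mg/mL) and a high dose (0.3 mg/mL) without assigning either to a library, and the high dose is the one that the study's methods give for Allantoin-H. All 6 libraries thus came from mice on the high-fat diet, and no library of chow-fed mice was analysed here.

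The libraries held 11326372 to 14601457 counts. The normalization factors of edgeR (TMM) were 0.756 to 0.951 in HFD and 1.12 to 1.19 in HFD+Allantoin-H. Genes of the mitochondrial chromosome took 17.9% to 36.4% of the counts in HFD, most in replicate 1, and 6.90% to 11.3% in HFD+Allantoin-H. Expression is given in CPM, read counts scaled to a common library size after this normalization. HFD replicate 2 carried adipocyte transcripts, with Adipoq at 51.4 CPM against at most 0.0733 CPM in any other library. Summed over 8 markers each, stellate cell genes ran from 192 to 314 CPM in HFD and from 414 to 493 CPM in HFD+Allantoin-H (6 of 8 called higher), and macrophage genes from 110 to 262 CPM and from 305 to 343 CPM (3 of 8 called higher). The 7 hepatocyte markers found were expressed in every library and summed, mostly through Alb, to 90270 to 92201 CPM in HFD and 76555 to 106159 CPM in HFD+Allantoin-H, and 2 of them were called higher (Cps1 and Apob) and 2 lower (Apoa1 and Ttr). In whole liver, fewer cells of a type and less RNA per cell cannot be told apart, and the part of these shifts in the results below was not tested.

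The 250 bases upstream of the transcription start (RefSeq, GRCm38.p6) are shown for Chka and Pcyt1a, the tested members with the largest fold changes, which went in opposite directions. The window of Pcyt1a is that of the first of its 3 starts in the table. GC boxes (GGGCGG on either strand) are in capitals.
Chka, chr19:3851523-3851772, plus strand: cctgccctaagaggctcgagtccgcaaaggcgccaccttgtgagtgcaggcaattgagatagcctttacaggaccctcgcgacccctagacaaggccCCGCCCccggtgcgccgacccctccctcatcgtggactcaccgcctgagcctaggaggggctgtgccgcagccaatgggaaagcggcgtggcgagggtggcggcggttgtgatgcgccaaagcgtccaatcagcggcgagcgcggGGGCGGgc
Pcyt1a, chr16:32430671-32430920, plus strand: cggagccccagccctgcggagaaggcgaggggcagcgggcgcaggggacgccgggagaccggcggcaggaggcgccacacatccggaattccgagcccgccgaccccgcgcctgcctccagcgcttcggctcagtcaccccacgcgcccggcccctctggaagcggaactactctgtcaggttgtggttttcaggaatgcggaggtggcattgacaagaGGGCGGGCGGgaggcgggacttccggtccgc
In the windows shown, Chka held 2 GC boxes, at positions -153 and -8 from the start, and Pcyt1a held 2 that overlap each other, at -31 and -27. The promoter table holds 15 windows for 9 members (all but Pcyt2), and a GC box was present in 9 of these 15 and in 32.7% of all 32851 windows. Windows of Pcyt1a and of Cept1 overlap, so the same boxes were counted again, and nothing is read from this share. No window of Pcyt1b or Pemt held one, nor did the last of the 3 windows of Pcyt1a or the Cept1 window at chr3:106543147-106543396. No member window held the E-box CACGTG, found in 6.02% of all windows, or the AP-1 motif TGANTCA, found in 6.75%. The core of the cAMP response element, TGACG on either strand, lay in a window of Etnk1, Etnk2 and Pcyt1a and in 17.8% of all windows. These matches are letters in a window and do not show that a factor binds there.

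Of the 10 members, 8 passed the filter on low counts and were tested with edgeR among 12795 genes. At an adjusted p under 0.05, Pcyt1a and Etnk2 were higher and Pcyt2 was lower in HFD+Allantoin-H, which is 2 of 8 higher and 1 of 8 lower, where 11.7% and 13.0% of all tested genes were called in these directions and 24.7% in either. The members' median log2 fold change was 0.34, beside -0.03 over all tested genes. In 3 of the 8, Etnk2, Pcyt1a and Chpt1, every HFD+Allantoin-H library lay above every HFD library, and in 2, Chka and Pcyt2, below, beside 22.4% and 21.9% of all tested genes (44.3% in either direction). Chka enters this count and the median although the pathway was chosen on its decrease, so its part in both was given in advance. With so few members, these counts show nothing particular to the pathway. Scaling by library size alone, which raised the median of all genes by 0.41, gave 4 members higher and 1 lower, beside 3255 and 667 of all tested genes.

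**Figure D1:**
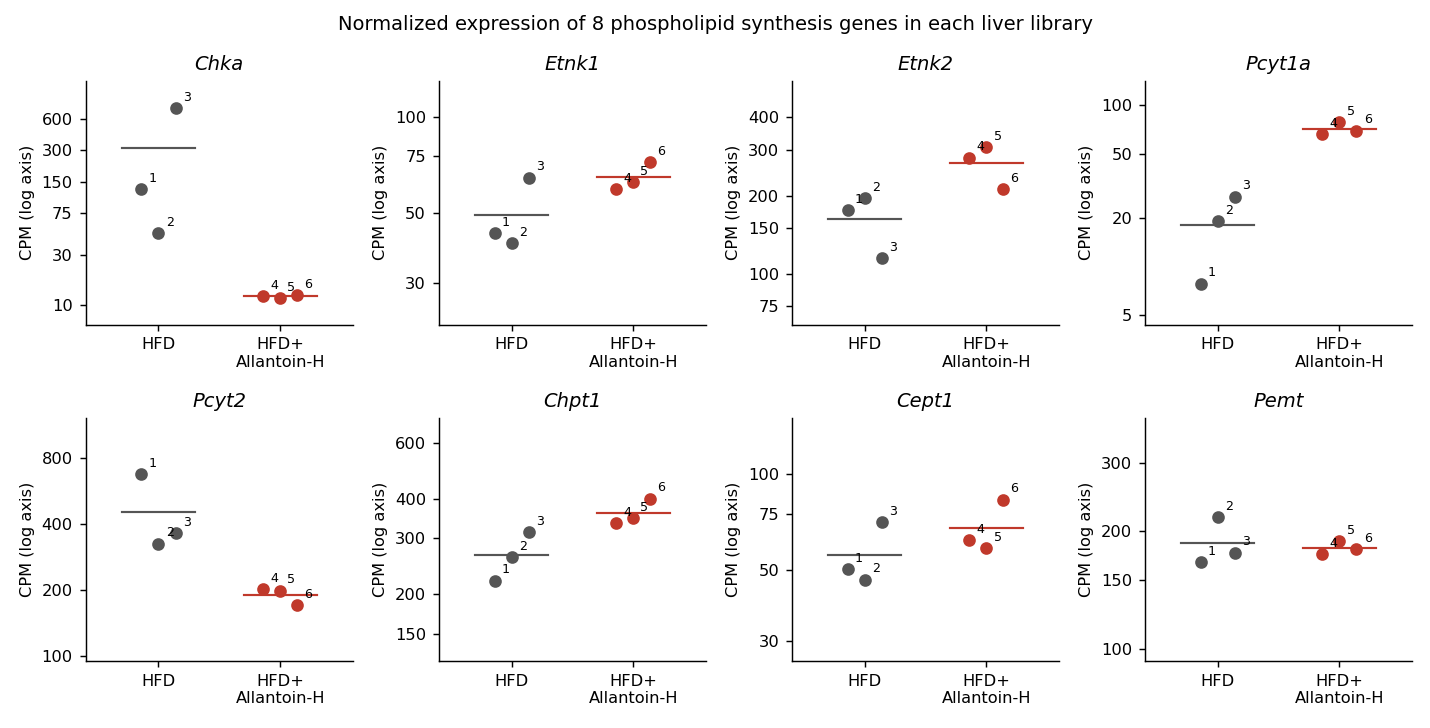
CPM (log axis) of the 8 tested members in each library, with HFD in grey and HFD+Allantoin-H in red; points are single libraries numbered by replicate and lines are group means. Chka lies between 11.7 and 12.5 CPM in HFD+Allantoin-H and between 48.4 and 766 CPM in HFD, Pcyt1a is higher and Pcyt2 lower in every HFD+Allantoin-H library, and Pemt overlaps.

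Chka (ENSMUSG00000024843, GRCm38 chromosome 19, 3851773 to 3894369) encodes choline kinase alpha, which phosphorylates choline as the first step toward phosphatidylcholine. Its raw counts were 1173, 490 and 9164 in HFD replicates 1 to 3 and 166, 198 and 185 in HFD+Allantoin-H replicates 4 to 6. After normalization, these corresponded to 128, 48.4 and 766 CPM and 12.2, 11.7 and 12.5 CPM. HFD replicate 3 stood far above the other libraries, and the groups did not overlap. The highest HFD library was 15.8-fold above the lowest one. Of 12259 genes with counts in every library and a mean of at least 1 CPM, 0.636% had a wider ratio among the HFD libraries. In HFD+Allantoin-H the same ratio was 1.07, and 95.2% of these genes had a wider one. The wide spread of Chka in HFD was known when the pathway was chosen, so these shares are a description. Even the lowest HFD library was 3.88-fold above the highest HFD+Allantoin-H library.

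Chka averaged 314 ± 393 CPM (SD, n = 3) in HFD and 12.1 ± 0.389 CPM (SD, n = 3) in HFD+Allantoin-H, and its log2 fold change was -4.70 (SE 1.26). Without HFD replicate 3 it was -2.86, so the size of the decrease rests largely on that library while its direction does not, and without HFD replicate 2, the library with adipocyte transcripts, it was -5.20. Chka was not among the genes called in the main fit. It was among them in 4 of 16 alternative settings, from which nothing is read because the pathway was chosen on this gene. These were DESeq2, edgeR without robust estimation of the spread, and the robust fit without HFD replicate 2 or 3. Chka took 8.70%, 4.20% and 40.3% of the counts of all 10 members in the HFD libraries, against 0.935% to 1.04% in HFD+Allantoin-H.

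The ratio of Chka to Pemt counts within a library does not depend on the normalization between libraries. It was 0.766, 0.223 and 4.34 in HFD, and 0.0697, 0.0621 and 0.0693 in HFD+Allantoin-H. All HFD values thus lay above all HFD+Allantoin-H values, as with CPM. The ratio is built from the Chka counts on which the pathway was chosen, so it adds no support of its own. An antisense gene shares at most 165 exonic bases with Chka, and whether counting used strand is not given in the sources used here.

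Chkb (ENSMUSG00000022617, chromosome 15, 89426360 to 89429908) encodes choline kinase beta, the second enzyme of this step. It was near the limit of detection, with 28, 10 and 10 counts in HFD and 0, 2 and 1 in HFD+Allantoin-H, and it did not pass the filter. Against a floor of 3 counts per library, its group mean was at least 8.14-fold lower in HFD+Allantoin-H, and at least 4.56-fold without HFD replicate 1. These bounds compare means without counting error, and single HFD libraries lay lower, with 0.988 and 0.836 CPM in replicates 2 and 3. Its exons overlap 1552 bases of the read-through gene Gm44502 on the same strand, which was at 0 in every library, and also those of C730034F03Rik on the opposite strand, so that reads could have been dropped or split between these genes. C730034F03Rik itself was lower in HFD+Allantoin-H (log2 fold change -2.22, adjusted p = 0.0212, edgeR).

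The ethanolamine kinases had other patterns. Etnk2 (ENSMUSG00000070644, chromosome 1, 133363572 to 133380336), the ethanolamine kinase more abundant in liver here, stood at 176, 195 and 115 CPM in HFD and 280.1, 306 and 211 CPM in HFD+Allantoin-H. The groups did not overlap, although HFD replicate 2 and HFD+Allantoin-H replicate 6 lay close to each other. Its log2 fold change was 0.72 (SE 0.23, adjusted p = 0.0446, edgeR). The call was lost with upper quartile normalization, without robust estimation of the spread and on leaving out HFD replicate 1 or 3 or any of the 3 HFD+Allantoin-H libraries, where the log2 fold change ran from 0.52 to 0.86. Etnk1 (ENSMUSG00000030275, chromosome 6, 143167221 to 143232307) stood at 43.0, 40.0 and 64.4 CPM in HFD and 59.4, 62.2 and 71.9 CPM in HFD+Allantoin-H, with overlapping groups. Its log2 fold change of 0.39 (95% interval -0.06 to 0.85) was not called (adjusted p = 0.185, edgeR), but it was without HFD replicate 3 (0.64) or with library size scaling (0.79).

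Pcyt1a (ENSMUSG00000005615, chromosome 16, 32430921 to 32475070) encodes CTP:phosphocholine cytidylyl-transferase alpha, the regulated enzyme of the phosphatidylcholine branch. It stood at 7.86, 19.1 and 27.2 CPM in HFD and 66.3, 78.6 and 69.8 CPM in HFD+Allantoin-H. The lowest HFD+Allantoin-H library was 2.44-fold above the highest HFD library, and HFD replicate 1 was the lowest of all. Pcyt1a averaged 18.0 ± 9.70 CPM (SD, n = 3) in HFD and 71.5 ± 6.33 CPM (SD, n = 3) in HFD+Allantoin-H, an increase of 1.98 on the log2 scale (SE 0.39, adjusted p = 0.00998, edgeR). Pcyt1a was called in all 16 alternatives, with log2 fold changes from 1.62 without HFD replicate 1 to 2.41 without HFD replicate 3. Slc51a overlaps 567 exonic bases of it on the opposite strand and had at most 1.17 CPM in any library.

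Pcyt2 (ENSMUSG00000025137, chromosome 11, 120610087 to 120617936) encodes CTP:phosphoethanolamine cytidylyl-transferase, the corresponding enzyme of the phosphatidylethanolamine branch. It stood at 676, 325 and 364 CPM in HFD and 201, 198 and 169.9 CPM in HFD+Allantoin-H, so HFD replicate 1 was the highest and the groups did not overlap. Pcyt2 averaged 455 ± 193 CPM (SD, n = 3) in HFD and 189.7 ± 17.2 CPM (SD, n = 3) in HFD+Allantoin-H, with a log2 fold change of -1.26 (SE 0.27, adjusted p = 0.00969, edgeR). Without HFD replicate 1, which also had the largest mitochondrial share of counts, it was -0.86 and still called. Scaled by library size alone it was -0.80, and leaving out HFD+Allantoin-H replicate 6 ended the call (-1.18, adjusted p = 0.0501).

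Pcyt1a and Pcyt2 therefore moved in opposite directions, and their ratio within a library is free of the scaling between libraries. There were 86.0, 17.0 and 13.4 counts of Pcyt2 for each count of Pcyt1a in HFD replicates 1 to 3. In HFD+Allantoin-H replicates 4 to 6 there were 3.03, 2.52 and 2.44. HFD replicate 1 stood several-fold above the rest of the HFD libraries, and every HFD+Allantoin-H library lay below every HFD library. This separation follows from that of each gene given above, so the ratio adds no separate result. Pcyt1b (ENSMUSG00000035246, chromosome X, 93654863 to 93749951), the beta form of the phosphocholine cytidylyl-transferase and mostly a gene of brain and gonads, had 0, 0 and 3 counts in HFD and 1, 4 and 1 in HFD+Allantoin-H, which is too few for a comparison.

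The phosphotransferases join the activated head group to diacylglycerol, Chpt1 with choline and Cept1 with choline or ethanolamine. Chpt1 (ENSMUSG00000060002, chromosome 10, 88452745 to 88504073) stood at 221, 261 and 315 CPM in HFD and 336, 348 and 401 CPM in HFD+Allantoin-H. All HFD+Allantoin-H libraries were above the HFD libraries, as in 22.4% of all tested genes. The log2 fold change of 0.45 (SE 0.18) was not called (adjusted p = 0.0968, edgeR), but it was without HFD replicate 3 (0.59) or with library size scaling (0.84). Cept1 (ENSMUSG00000040774, chromosome 3, 106502260 to 106547802) stood at 50.4, 46.7 and 70.6 CPM and 61.9, 58.6 and 83.1 CPM, and its groups overlapped (log2 fold change 0.28, 95% interval -0.19 to 0.74, adjusted p = 0.355, edgeR). The exons of Cept1 overlap those of Dennd2d (by 771 bases, 6.69 to 11.1 CPM) and Dram2 (60.9 to 115 CPM) on the opposite strand. Those of Chpt1 overlap 660 bases of Sycp3 on the opposite strand, which had at most 1.86 CPM, and Chpt1 shares 303 near-identical bases with the pseudogene Gm13131, so the counts of both carry this uncertainty.

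Pemt (ENSMUSG00000000301, chromosome 11, 59970614 to 60046489) varied least among the tested members in the HFD group. It stood at 167, 217 and 177 CPM in HFD and 175, 189 and 180.1 CPM in HFD+Allantoin-H, all HFD+Allantoin-H values lying within the HFD range. The log2 fold change was -0.05 with a 95% interval of -0.41 to 0.32 (adjusted p = 0.862, edgeR), so a change of Pemt was not detectable, and its sign turned with library size scaling (0.36).

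**Figure D2:**
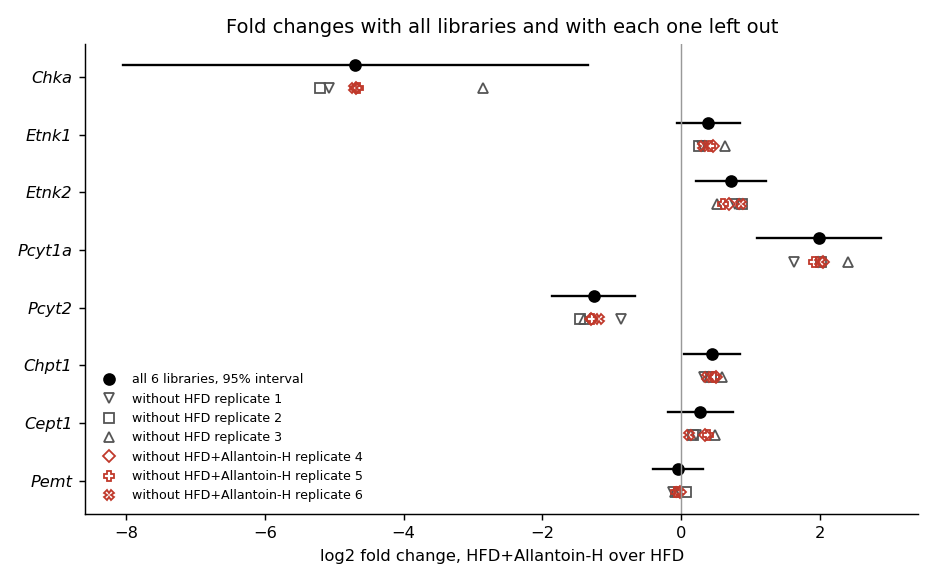
Log2 fold change of the 8 tested members, HFD+Allantoin-H over HFD; black points and lines are the estimate and its 95% interval with all 6 libraries, and open symbols are the estimates with 1 library left out. Leaving out HFD replicate 3 moves Chka from -4.70 to -2.86, and no other member moves as far. The pathway was chosen on Chka, so its interval is a description and not a test.

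Levels of different genes were compared as CPM per kilobase of merged exons, which count the exons of every annotated transcript. In HFD, Pcyt2 (105 ± 44.3, SD, n = 3) and Pemt (88.9 ± 12.7) were highest with overlapping ranges, followed by Etnk2 (35.5 ± 9.21), Chpt1 (31.9 ± 5.67), Chka (26.1 ± 32.7) and Cept1 (17.9 ± 4.13), in which each neighbouring pair overlapped. Etnk1 (3.47 ± 0.939) and Pcyt1a (2.43 ± 1.31) were lower and overlapped each other. In HFD+Allantoin-H the order was Pemt (86.1 ± 3.36), Etnk2 (58.3 ± 10.7), Pcyt2 (43.7 ± 3.95), Chpt1 (43.4 ± 4.15), Cept1 (21.8 ± 4.26), Pcyt1a (9.65 ± 0.854), Etnk1 (4.56 ± 0.463) and Chka (1.01 ± 0.0323). Of neighbours in this order, only Pcyt2 and Chpt1 had overlapping ranges, and Etnk2 also overlapped Chpt1. The place of Chka in HFD rests on replicate 3, since on this scale it was at 10.7, 4.02 and 63.7 in the HFD libraries, below Cept1 in replicates 1 and 2 and above Etnk2 in replicate 3. In every HFD+Allantoin-H library Chka was the lowest of the tested members. Chkb and Pcyt1b were lowest in both groups, at 0.531 or less.

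The genes closest to Chka in pattern were sought by the root mean square difference of log2 CPM over the 6 libraries, each gene centred on its own mean, among 11264 genes. The 5 closest were Sox9 (0.70), a transcription factor of bile duct cells, Gstp2 (0.70), a glutathione transferase, Ddit3 (0.73), the stress-induced factor CHOP, Tnfrsf12a (0.78), the receptor of the cytokine TWEAK, and Mt1 (0.84), a metallothionein. Ddit3 stood at 20.9, 16.9 and 93.4 CPM in HFD and 3.81, 4.55 and 6.34 CPM in HFD+Allantoin-H. Tnfrsf12a stood at 14.2, 9.28 and 90.4 CPM and 4.40, 3.43 and 5.74 CPM, and Sox9 at 13.0, 8.30 and 43.6 CPM and 2.27, 2.78 and 2.16 CPM. In all 5 genes HFD replicate 3 was the highest library, and every HFD library lay above every HFD+Allantoin-H library. They were picked for this likeness, which is given as a description over 6 libraries, and Gstp2 shares 707 near-identical bases with Gstp1. Sox9 is also 1 of 8 cholangiocyte markers, of which Spp1 (26.7, 25.3 and 110 CPM in HFD, 19.5, 16.3 and 73.0 CPM in HFD+Allantoin-H) was high in HFD replicate 3 as well. Of the 8 markers, 7 were highest in HFD replicate 3 among the 6 libraries, the exception being Krt7. Sox9 was picked for this pattern, and Cldn4, Cftr and Tspan8 had 2, 6 and 6 counts in that library. The share of all genes highest there was not computed, so nothing is read from this count. The 8 markers summed to 34.6 to 160 CPM in HFD, highest in replicate 3, and 22.2 to 77.1 CPM in HFD+Allantoin-H. Apart from Sox9 and Spp1 they were low, with Epcam at 2.84 CPM and Krt19 at 1.92 CPM in HFD replicate 3, and the part of these cells in the pattern was not tested.

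**Figure D3:**
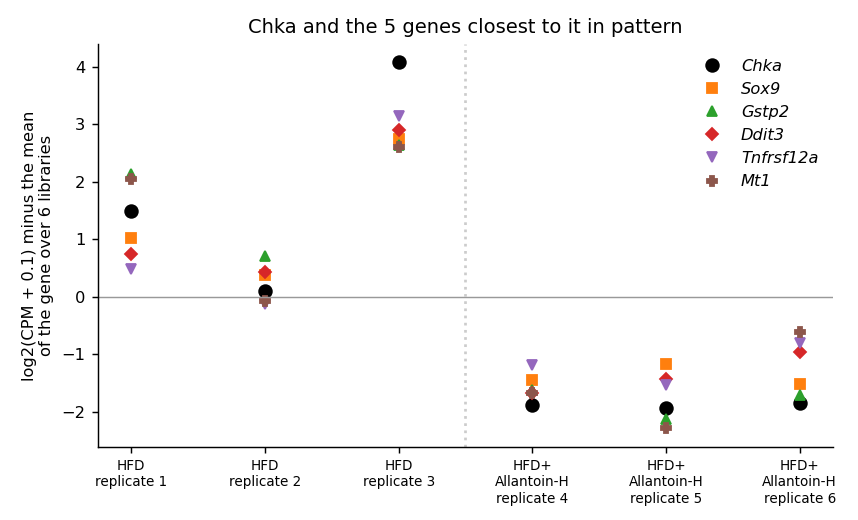
Log2(CPM + 0.1) of Chka and the 5 genes closest to it, each minus its own mean over the 6 libraries; points are single libraries. All 6 genes peak in HFD replicate 3 and lie below 0 in every HFD+Allantoin-H library.

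To place the members within phospholipid metabolism, 75 other genes in 9 lists were examined, of which 66 could be tested. In HFD+Allantoin-H, 14 were higher (21.2% of those tested) and 5 were lower (7.58%), beside 11.7% and 13.0% of all tested genes, and their median log2 fold change was 0.16. With scaling by library size alone, 27 were higher and 1 was lower, beside 3255 and 667 of all 12795 tested genes.

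Among genes of choline oxidation and betaine, 3 of 7 tested were higher and 1 was lower. Chdh, the mitochondrial choline dehydrogenase that competes with choline kinase for its substrate, was higher, at 66.1 ± 17.1 CPM (SD, n = 3) in HFD and 148 ± 25.1 CPM (SD, n = 3) in HFD+Allantoin-H (log2 fold change 1.17, adjusted p = 0.00512, edgeR). Slc25a48, which carries choline into mitochondria, and Sardh, the sarcosine dehydrogenase, rose by 0.89 and 0.82 on the log2 scale. Bhmt, which remethylates homocysteine with betaine, fell by 0.67 on the log2 scale (adjusted p = 0.0384), a call lost in 7 of 16 alternatives, and it has near-identical copies in Gm5096 and Bhmt-ps1.

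Of the 3 genes listed for methyl supply, which concern the methyl donor of Pemt and its product, 2 were higher. Gnmt, the glycine methyltransferase that consumes S-adenosylmethionine, stood at 176, 515 and 295 CPM in HFD and 1492, 1848 and 844 CPM in HFD+Allantoin-H. Its log2 fold change was 2.08 (SE 0.45, adjusted p = 0.0156, edgeR). Mat1a, the S-adenosylmethionine synthetase of adult liver, rose by 0.79 on the log2 scale (adjusted p = 0.0247). Of the 6 genes around phosphatidylserine and phosphatidylethanolamine, Ptdss1, a phosphatidylserine synthase, was higher (0.51, adjusted p = 0.0299). Selenoi, from the same list, was not called (log2 fold change -0.10, adjusted p = 0.688, edgeR).

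Among 12 genes of phosphatidate and diacylglycerol supply, 2 were higher and 1 was lower. Gpam, the mitochondrial glycerol-3-phosphate acyltransferase, stood at 23.6, 16.3 and 6.86 CPM in HFD and 84.1, 107 and 83.3 CPM in HFD+Allantoin-H, the largest change of the 66 (log2 fold change 2.56, SE 0.40, adjusted p = 0.00504, edgeR). Gpat4, its counterpart of the endoplasmic reticulum, was higher, at 96.6 ± 17.7 CPM (SD, n = 3) in HFD and 193 ± 35.1 CPM (SD, n = 3) in HFD+Allantoin-H, and Agpat1, which acylates lysophosphatidate, was lower (log2 fold change -0.90, adjusted p = 0.0383). Cds2, a CDP-diacylglycerol synthase of the branch toward phosphatidylinositol, was the 1 of 7 genes called there, at 1.25 (adjusted p = 0.00336).

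Acyl chain remodelling had 2 of 7 tested genes higher, Lpgat1 (0.64) and Lclat1 (0.68), and Taz, the cardiolipin transacylase tafazzin, lower (-0.68, adjusted p = 0.0142). In phosphatidylcholine breakdown, Gpcpd1 and Pnpla6 act in sequence on the way back to choline. Pnpla6, the lysophospholipase known as neuropathy target esterase, which releases glycerophosphocholine, was lower, at 31.2 ± 11.4 CPM (SD, n = 3) in HFD and 12.7 ± 1.96 CPM (SD, n = 3) in HFD+Allantoin-H (log2 fold change -1.30, adjusted p = 0.00745). Gpcpd1, the glycerophosphocholine phosphodiesterase, was higher, at 80.5 ± 12.1 CPM (SD, n = 3) in HFD and 209 ± 41.9 CPM (SD, n = 3) in HFD+Allantoin-H (log2 fold change 1.37, adjusted p = 0.00232). The third called gene of 11 tested was Pla2g12b, which was lower (-0.55, adjusted p = 0.0405). Of 7 genes of phosphatidylcholine transport and sphingomyelin synthesis, Pctp, the phosphatidylcholine transfer protein, was higher (0.92, adjusted p = 0.0129). Of the 19 called genes, 7 kept their call in all 16 alternatives, among them Chdh, Gpam, Gpat4, Cds2, Gpcpd1 and Pnpla6.

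**Figure D4:**
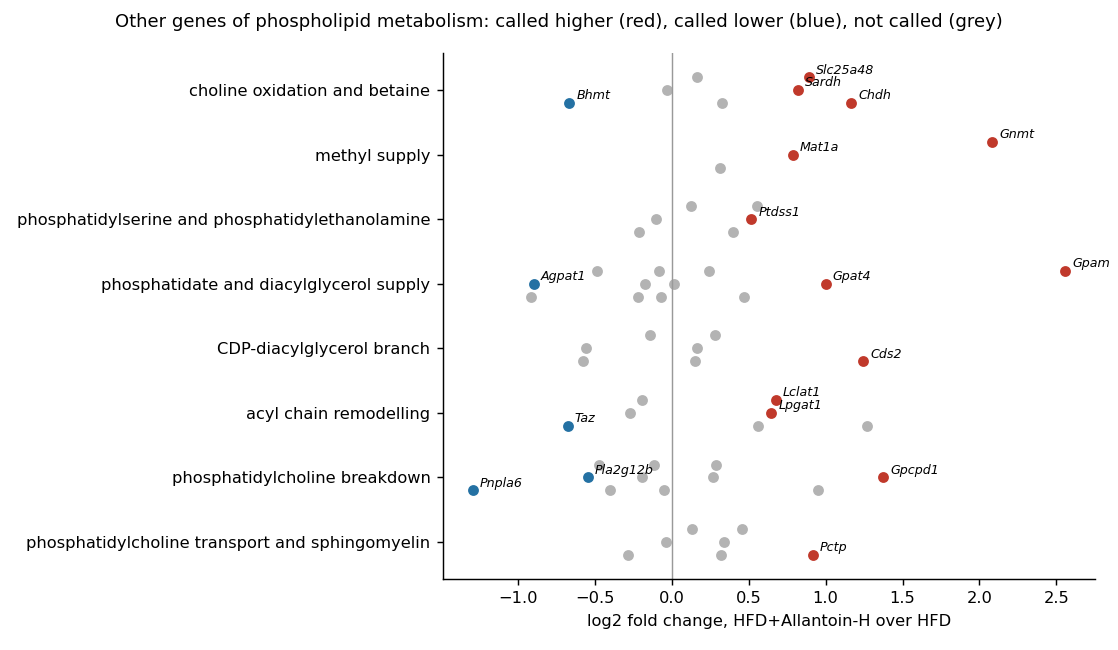
Log2 fold change, HFD+Allantoin-H over HFD, of 60 tested genes of phospholipid metabolism in 8 lists, without those of choline uptake; each point is a gene, with red and blue for genes called higher and lower and grey for the rest. Gpam (2.56) and Gnmt (2.08) lie farthest to the right and Pnpla6 (-1.30) farthest to the left.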

How the data were processed

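The authors deposited whole-number read counts per gene, 1 column per library, made from filtered Illumina HiSeq reads of liver RNA and not normalized. The labels name GRCm38 (mm10), and the aligner and counting tool are not given in the sources used here. The table holds 54961 entries, of which 429 without an Ensembl identifier (0.197% to 0.306% of the counts) were left out. Symbols, positions and exon lengths came from GENCODE M21 (GRCm38).

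Counts were analysed in R 4.3.3 with edgeR 4.0.16: TMM normalization, filterByExpr, the quasi-likelihood test with robust estimation and Benjamini-Hochberg adjustment over 12795 genes. Group was the only term, since no batch or pairing is given. The labels do not say that libraries are separate mice, so p-values measure the spread between libraries. The standard error was derived from the F statistic. Tested on simulated counts of this comparison (12565 genes), the fit recovered 172 of 198 genes changed by 2 on the log2 scale, while 13 of its 185 calls fell on unchanged genes. The simulation gave each gene the same spread in both groups. In the data, the median ratio of highest to lowest library was 1.58 in HFD and 1.30 in HFD+Allantoin-H. Far more genes were called in the data, many with smaller changes, so these rates need not carry over.

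Members and lists were chosen with earlier results of these data known. Named were all 10 members, Selenoi, at most 4 called genes per list by smallest p, and the 5 genes closest to Chka (pseudocount 0.1 CPM). Genes of choline uptake enter the totals and are not reported here by name. Marker lists also covered endothelial cells (104 to 171 CPM in HFD and 135 to 202 CPM in HFD+Allantoin-H), lymphocytes (6.27 to 10.7 and 4.05 to 7.84), erythroid cells (332 to 1336 and 878 to 1054), skeletal muscle (0.669 to 5.73 and 0.270 to 0.592, with Ckm, Myh4, Tnnt3 and Myh1 at 0), cholangiocytes and adipocytes (3219 to 4244 and 2520 to 3850, nearly all from Car3, which liver also expresses). Of the 8 hepatocyte markers listed, 1 symbol was not found. BLAST 2.17.0 was used to find near-identical transcripts (200 bases or more at 95% identity). Motifs were searched on both strands. Alternatives were RLE, upper quartile and library size scaling, DESeq2 1.42.0, limma-voom (limma 3.58.1), 3 other filters, leaving out the mitochondrial chromosome or each library, and, chosen after seeing the data, edgeR without robust estimation.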

Additional observations from a re-analysis of the deposited data

How the results depend on the processing

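Of the 8 tested members, 7 kept their direction in all 16 alternatives, and Pemt turned to 0.36 with scaling by library size only and to 0.0755 without HFD replicate 2 (-0.12 to 0.0755 over single libraries left out). The count of members called higher was 2, and it was 4 with library size only, 1 with upper quartile normalization and 1 without robust estimation (Etnk2 lost), and 1 to 3 when single libraries were left out. The count called lower was 1, and it was 2 with DESeq2 and 2 without robust estimation (Chka added). It was 2 with no filter and 2 without the mitochondrial chromosome (Chkb tested and added). When single libraries were left out it was 1 to 3, with Chka added without HFD replicate 2 or 3. Chkb was added without HFD replicate 3 or HFD+Allantoin-H replicate 4 or 5. Without HFD+Allantoin-H replicate 6, Chkb was the only member called lower. Chkb enters a fit only where its HFD counts pass the filter or no filter is set, so nothing is read from its calls. Of the other phospholipid genes, 14 were higher and 5 lower, against 27 and 1 with library size only and 6 to 17 and 1 to 4 without single libraries, the lowest counts being those without HFD+Allantoin-H replicate 5 (6 and 1) or 4 (7 and 1), and replicate 6 also leaving 1 lower. Over all genes, 1491 were higher and 1665 lower, against 3255 and 667 with library size only and 558 to 1811 and 696 to 2013 without single libraries. The cause of these differences was not tested. No paired analysis was possible because the groups share no replicate number. Chkb and Pcyt1b had at most 28 and 4 counts in any library and did not pass the filter. Leaving out single HFD libraries, chosen after seeing the data, moved the bound for the group mean of Chkb from 8.14-fold to between 4.56-fold and 10.1-fold.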
